A study of Mus musculus with 10 samples.

Results

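The genes described here encode the core of the NF-κB pathway: the 5 transcription factor subunits Rela, Relb, Rel, Nfkb1 and Nfkb2, the inhibitor kinases Ikbkb and Chuk, and the feedback inhibitors Nfkbia, Nfkbiz and Tnfaip3. They were named by symbol for their role in the pathway, with earlier results of these data known, and all 10 had a row among the 56884 genes of the count table. RNA was taken from the hippocampus of 10 female P301S mice (also called PS19), which carry human mutant Tau under the mouse Prnp promoter. The mice were ovary-intact. At 6 months of age, 5 received a subcutaneous implant with 10 mm of dihydrotestosterone (DHT), an androgen that aromatase cannot turn into estrogen, and 5 a void implant, which was empty. Tissue was taken after 12 weeks, at 9 to 9.5 months. All 10 mice carried the transgene, so the comparison is between implants within one tauopathy model, with no mice free of the transgene.

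NF-κB subunits work as dimers that wait in the cytoplasm, held there by inhibitors of the IκB family. A signal from a receptor such as the TNF receptor or a Toll-like receptor activates the IKK kinases, which mark the inhibitor for destruction and free the dimer to enter the nucleus. Rela, Rel and Relb carry a domain that switches genes on, whereas Nfkb1 and Nfkb2 encode precursors (p105 and p100) that are trimmed to the DNA-binding subunits p50 and p52. The freed dimers switch on genes for their own inhibitors, which closes a feedback loop. In the brain the pathway is best known in microglia, and much of its control acts on proteins, which RNA levels do not show.

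Since NF-κB acts through κB sites in DNA, the 100 bases just before the start are shown for 4 genes with letters that match the κB consensus there, and for Rela and Chuk, which have no such match. The sequences are RefSeq promoters of build GRCm38.p6, printed 5′ to 3′ on the strand of the gene, and capitals mark matches to the κB consensus on either strand.
Nfkbia (chr12:55492648-55492747, minus strand): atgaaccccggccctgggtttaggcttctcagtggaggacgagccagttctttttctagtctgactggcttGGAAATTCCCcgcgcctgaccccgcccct
Nfkb2, first start (chr19:46304637-46304736, plus strand): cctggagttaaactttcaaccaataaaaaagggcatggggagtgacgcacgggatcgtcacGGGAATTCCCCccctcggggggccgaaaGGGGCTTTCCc
Rel (chr11:23770970-23771069, minus strand): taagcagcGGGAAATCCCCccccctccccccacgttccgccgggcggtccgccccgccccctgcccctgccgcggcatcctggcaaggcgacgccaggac
Tnfaip3, first start (chr10:19015411-19015510, minus strand): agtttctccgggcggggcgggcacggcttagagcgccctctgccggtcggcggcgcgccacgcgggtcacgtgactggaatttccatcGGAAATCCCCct
Rela (chr19:5637441-5637540, plus strand): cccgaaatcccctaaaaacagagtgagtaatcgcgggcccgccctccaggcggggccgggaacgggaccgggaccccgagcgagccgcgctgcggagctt
Chuk (chr19:44107478-44107577, minus strand): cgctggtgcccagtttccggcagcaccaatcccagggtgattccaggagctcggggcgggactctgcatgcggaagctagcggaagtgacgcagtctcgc

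RefSeq promoters, each 250 bases before to 50 after a start, were at hand for 6 of the 10 genes, with 9 starts in all. The 4 genes without one were Relb, Nfkb1, Nfkbiz and Ikbkb. The κB consensus, searched on both strands, was in 6 of these 9 promoters (Nfkb2, Nfkbia, Rel and Tnfaip3) and in 4.51% of all 32851 promoters of that length. The later starts of Nfkb2 overlap and share one match. Rela and Chuk held none in these windows. The core motif AGGTCA, bound by nuclear receptors such as TR4, was in 0 of the 9 promoters and in 16.3% of all, and the GC box GGGCGG in 7 of the 9 and in 35.7% of all. A match describes letters only, and none of the assays here measured binding.

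Total counts ranged from 27188854 to 47113661 per mouse, the 8 hippocampal marker genes were detected and 0 of them changed in edgeR's quasi-likelihood test. Levels are given as CPM, which are counts scaled to the normalized library size of each mouse. Library positions in the labels run from 4 to 11 for void and from 18 to 23 for DHT, so library order and implant cannot be told apart. Markers of other cells moved with the implant. The summed level of 10 microglia markers was 466 to 540 CPM with void and 648 to 942 with DHT, and 5 of the 10 rose. In bulk tissue more microglia and more RNA per microglial cell cannot be told apart. The 12 choroid plexus markers summed to 120 to 1931 CPM with void and 2247 to 3189 with DHT, and 4 of 12 passed the test, with all 12 higher at an unadjusted p under 0.05. Over all genes tested, 5.22% were called higher. Of the other lists, astrocytes had 1 of 8 genes higher. Neurons, oligodendrocytes, endothelium and the joint list of leptomeninges and mural cells had 0 called in the same test. At an unadjusted p under 0.05, 4 of 8 astrocyte and 4 of 8 oligodendrocyte genes were higher, against 13.1% of all genes. By that rule 1 of 10 neuron genes (Map2) was lower, and endothelium and the joint list had 0. Markers of T cells, B cells and neutrophils had too few counts to be tested, with sums of 0.589 to 1.75 CPM, and 1 of 5 red cell markers was tested and did not pass.

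The gene that changed was Nfkb1 (ENSMUSG00000028163), the precursor of p50. Nfkb1 stood at 17.99, 18.2, 18.3, 18.8 and 19.3 CPM in the void-treated females and at 21.9, 22.1, 23.5, 24.0 and 25.2 CPM in the DHT-treated females. Every DHT-treated mouse lay above every void-treated mouse, and the void-treated mice were close together. The means were 18.5 ± 0.534 and 23.3 ± 1.37 CPM (SD, n = 5 each). The log2 fold change was 0.33, with a 95% interval of 0.20 to 0.47. With edgeR's quasi-likelihood F test, adjusted by Benjamini and Hochberg's method over 17622 tested genes, the adjusted p was 0.0117. Without DHT replicate 1 the log2 fold change was 0.27 and the adjusted p 0.0564 (edgeR), while the other 9 fits with a mouse left out kept Nfkb1 under the threshold, at 0.30 to 0.35.

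Of the 10 genes, 1 rose and 0 fell at an adjusted p under 0.05 (edgeR). Over all genes tested, 5.22% rose and 0.261% fell by the same rule. With a log2 fold change beyond 1 asked for as well, 0 of the 10 passed in either direction, against 2.17% of all genes higher and 0.0227% lower. At an unadjusted p under 0.05, 3 of the 10 were higher (Rela, Nfkb1 and Nfkb2) and 0 lower, against 13.1% of all genes higher. DESeq2 called 2 of the 10 higher, Nfkb1 and Nfkb2. It also made more calls over all genes, 1228 higher and 233 lower, where edgeR made 920 and 46. The median log2 fold change of the 10 was 0.19, and 8 were positive. Over all genes tested the median was 0.0094, and 52.4% were positive. The groups were fully apart for 1 of the 10, and 5.39% of all genes had all DHT-treated mice on top, and 0.880% had them all at the bottom.

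**Figure D1:**
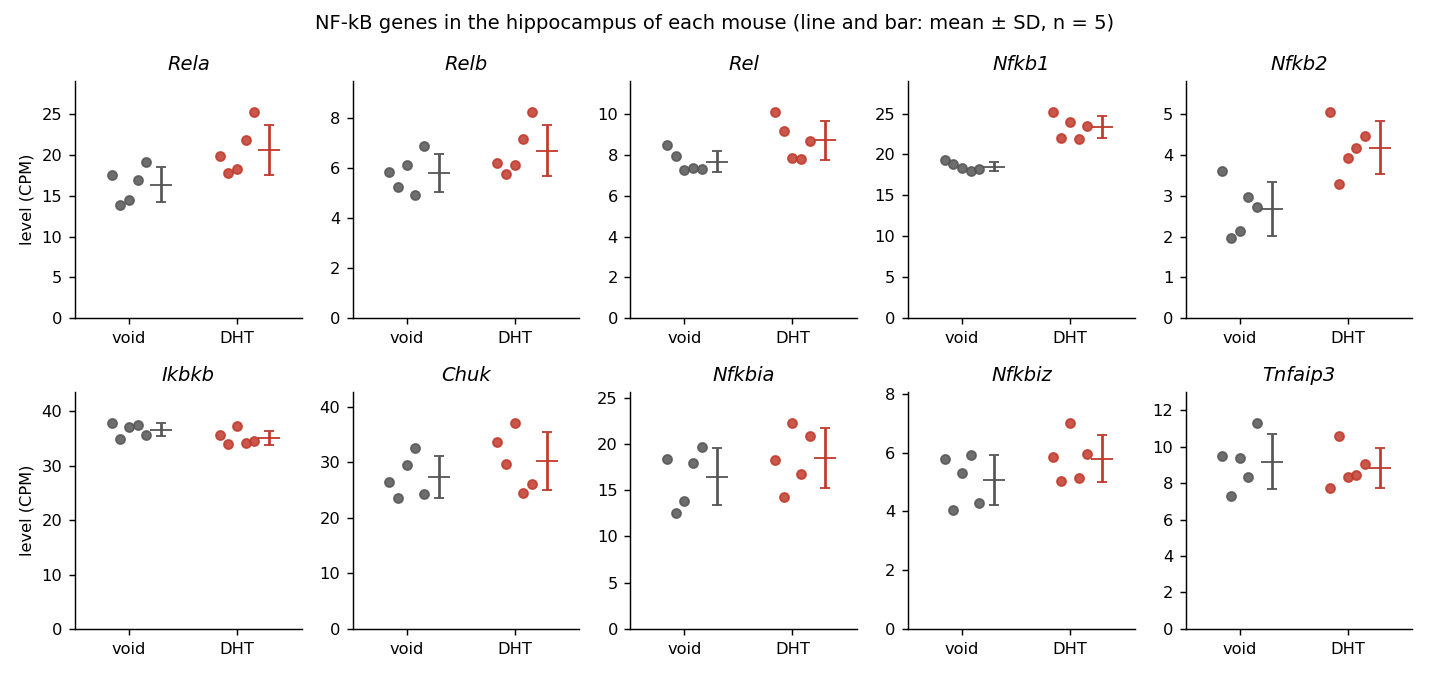
Level of each of the 10 genes (CPM, vertical axes from 0) in the 5 void-treated (grey) and 5 DHT-treated (red) females, with 1 point per mouse and the mean ± SD beside the points. Only the Nfkb1 panel shows groups that do not overlap, with void-treated mice at 17.99 to 19.3 and DHT-treated mice at 21.9 to 25.2 CPM.

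Nfkb2 (ENSMUSG00000025225), the precursor of p52 in the non-canonical branch, had the largest fold among the 10 genes and the lowest level per length. It stood at 1.98, 2.14, 2.73, 2.97 and 3.62 CPM with void and at 3.28, 3.94, 4.16, 4.47 and 5.05 CPM with DHT. The groups overlapped in a single pair, since void replicate 10 was above DHT replicate 2. The log2 fold change was 0.64 (95% interval 0.26 to 1.03, adjusted p = 0.0582, edgeR). DESeq2 gave a log2 fold change of 0.62 with an adjusted p of 0.0120. The edgeR value was 0.0379 without void replicate 10, 0.0399 without DHT replicate 2 and up to 0.184 with another mouse left out. The counts behind it were 66 to 188 per mouse. In GENCODE M21, 2 genes on the opposite strand, Psd and AC114539.1, overlap 6.52% and 11.6% of its exon bases, and the strand setting of the counting is not given in the sources used here.

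Rela (ENSMUSG00000024927) encodes p65, the subunit that most often switches genes on. In void-treated females it ranged from 13.8 to 19.1 CPM, with a median of 16.9, and in DHT-treated females from 17.8 to 25.2, with a median of 19.8. Of the 5 DHT-treated mice, 3 exceeded all void-treated mice. Its log2 fold change of 0.33 was about the same size as that of Nfkb1, but its mice were spread more widely, and the 95% interval ran from 0.08 to 0.59 (adjusted p = 0.140, edgeR). With a mouse left out it passed in 0 of 10 fits, at adjusted p-values of 0.0825 to 0.353.

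The other activating subunits did not pass the test. Relb (ENSMUSG00000002983), the partner of p52, stood at 5.81 ± 0.769 CPM (void) and 6.70 ± 1.01 CPM (DHT; SD, n = 5 each), with an interval of the log2 fold change from -0.07 to 0.49. Rel (ENSMUSG00000020275), the subunit best known in lymphoid and myeloid cells, stood at 7.68 ± 0.525 and 8.72 ± 0.957 CPM (SD, n = 5 each), with an interval from -0.03 to 0.39. For both genes the groups overlapped, with 2 and 3 of the 5 DHT-treated mice above all void-treated mice. All 5 subunit genes had positive estimates, but with a marker list as covariate the sign turned for Rel (-0.098) and Nfkb2 (-0.048, both with microglia markers) and for Relb (-0.065, with choroid plexus markers).

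Neither kinase gene passed the test. Ikbkb (ENSMUSG00000031537) encodes IKKβ, the kinase that phosphorylates IκBα in the canonical branch. It stood at 36.7 ± 1.28 CPM (void) and 35.1 ± 1.34 CPM (DHT; SD, n = 5 each), and its log2 fold change of -0.063 had an interval from -0.18 to 0.052. Chuk (ENSMUSG00000025199) encodes IKKα, which also drives processing of p100. It ranged from 23.5 to 32.7 CPM with void and from 24.5 to 37.2 with DHT, a log2 fold change of 0.15 with an interval from -0.13 to 0.42. Both intervals include 0, and that of Ikbkb was the narrower.

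Among the feedback inhibitors no gene passed the test. Nfkbia (ENSMUSG00000021025) encodes IκBα, which binds the dimers in the cytoplasm. It stood at 16.4 ± 3.08 CPM in void-treated and 18.5 ± 3.20 in DHT-treated mice (SD, n = 5 each). The log2 fold change was 0.17, with an interval from -0.15 to 0.49. Tnfaip3 (ENSMUSG00000019850) encodes A20, a ubiquitin-editing enzyme that shuts down signalling from the receptors. It stood at 9.17 ± 1.51 and 8.85 ± 1.09 CPM (SD, n = 5 each), with an interval of the log2 fold change from -0.33 to 0.22. Nfkbiz (ENSMUSG00000035356) encodes IκBζ, a nuclear member of the family that also helps to switch on secondary response genes. It stood at 5.07 ± 0.861 and 5.79 ± 0.800 CPM (SD, n = 5 each), with an interval from -0.11 to 0.50. The 3 genes overlapped between the groups, and 2 of them (Nfkbia and Tnfaip3) are among those with κB letters in the promoters shown above. For Nfkbiz no promoter was at hand to search.

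**Figure D2:**
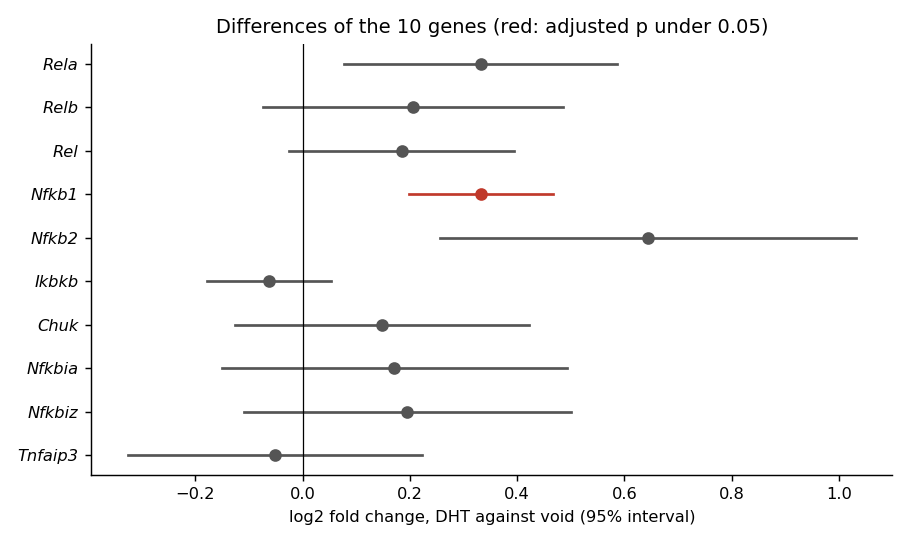
Log2 fold change of DHT against void for each of the 10 genes (points), with its 95% interval (lines), and the gene with an adjusted p under 0.05 in red. Intervals of Nfkb1, Nfkb2 and Rela lie above 0, and those of the other 7 genes include 0.

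Levels of different genes were compared per kilobase of the longest principal transcript in GENCODE M21. In void-treated females Nfkbia was at 10.4 ± 1.95 CPM per kilobase and Ikbkb at 10.2 ± 0.357 (SD, n = 5 each), which did not differ beyond their spread. Chuk followed at 7.80 ± 1.08 and Rela at 6.02 ± 0.798, which again lay within each other's spread, and then Nfkb1 at 4.50 ± 0.130. Tnfaip3 (2.07 ± 0.340), Relb (1.49 ± 0.198), Rel (1.03 ± 0.0703) and Nfkbiz (1.01 ± 0.171) came next, of which Rel and Nfkbiz did not differ beyond their spread. Nfkb2 was lowest, at 0.586 ± 0.144. In DHT-treated females the order of the 10 genes was the same, with Nfkbia at 11.7 ± 2.03, Nfkb1 at 5.67 ± 0.332 and Nfkb2 at 0.912 ± 0.143 CPM per kilobase. Among those mice neighbours lay within each other's spread from Nfkbia down to Rela, from Tnfaip3 to Relb and from Rel down to Nfkb2. When all annotated exons of a gene were joined to give its length, 19078 bases for Ikbkb in place of 3580, Ikbkb moved from rank 2 to rank 4 in void-treated females. By that length the groups no longer had the same order. In DHT-treated females Rela stood above Chuk and Nfkb1 above Ikbkb, which was at rank 5, each pair within its spread.

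Within the groups the 10 genes did not rise and fall as a unit. After each group was centred on its own mean, Pearson's r of log2 CPM across the 10 mice was 0.94 for Ikbkb and Nfkbiz, 0.83 for Ikbkb and Chuk, 0.74 for Rela and Relb and 0.72 for Nfkb2 and Nfkbia. Nfkb1 and Rela, with similar folds, had r = -0.042. Relb and Chuk had r = -0.58. These values describe 10 libraries, and the genes of a pair share the depth and tissue makeup of each library. By the same measure, the 3 genes whose pattern was most like that of Nfkb1 were Blnk (r = 0.96), an adaptor in B cells and myeloid cells, H2-T24 (r = 0.93), an MHC class I-like gene that may share reads with its relatives, and Palld (r = 0.93), a regulator of actin. They were picked as the highest of 17622 tested genes, and how high r gets by chance in such a pick was not tested. Blnk and H2-T24 rose, and Palld did not pass (adjusted p = 0.0337, 0.00670 and 0.366, edgeR).

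The rest of the pathway was described by lists ordered by role, in all 87 genes, of which 76 were tested. Of these, 13 rose and 0 fell, or 17.1% of those tested against 5.22% of all genes. The 13 fell to 5 without void replicate 11, to 8 without DHT replicate 1 and to 0 with either marker list as a covariate. Calls were lost over all genes too, from 920 higher in the main analysis to 351, 395 and 0 in the same fits. At an unadjusted p under 0.05 (edgeR), 15 of the 76 were higher with the choroid plexus markers as covariate and 1 with the microglia markers. The medians of the list were 0.14 and 0.060 in these fits. The genes that rose were 9 receptors, 2 ligands, 1 adaptor and 1 other IκB gene. The lists of other kinases (9 tested) and of deubiquitinases and other brakes (17 tested) had 0. With 5.22% of all genes higher, 0 in lists this short does not set them apart from all genes.

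Of 10 ligand genes 5 were tested, and Il1b and Tnfsf13b (BAFF) rose. Tnfsf13b passed in 7 of 10 fits with a mouse left out, and its adjusted p was 0.0612 without void replicate 11, 0.0562 without void replicate 4 and 0.0564 without DHT replicate 1 (edgeR). Il1b, the precursor of interleukin 1β, stood at 0.182 ± 0.0803 CPM (void) and 0.563 ± 0.138 CPM (DHT; SD, n = 5 each). The groups did not overlap, at 13 to 37 counts against 3 to 10, and the log2 fold change was 1.63 (adjusted p = 0.0117, edgeR). Tnf itself had too few counts for the filter, with 1, 1, 2, 2 and 3 counts in void-treated mice and 6, 7, 7, 7 and 13 in DHT-treated mice. The groups did not overlap (two-sided exact permutation test of log2 CPM, p = 0.00794, which no split of 5 and 5 mice can go below). With no filter on low counts, edgeR's adjusted p for Tnf was 0.0417, and DESeq2 gave 0.0542.

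Of 21 receptor genes 16 were tested, and 9 rose (5.22% of all genes did). All 16 estimates were positive (52.4% of all genes were), with a median log2 fold change of 0.78. The 10 microglia markers had 5 higher and 10 positive estimates, with a median of 0.54. Whether the receptors moved with microglia was not tested. Tnfrsf1a, the receptor through which TNF activates NF-κB in most cells, ranged from 8.82 to 12.2 CPM with void and from 12.8 to 20.7 with DHT. Its groups did not overlap, and its log2 fold change was 0.76 (adjusted p = 0.00992, edgeR). Tnfrsf1b rose by 0.63 on the log2 scale (adjusted p = 0.0420, edgeR), although with a single mouse left out it passed in 3 of 10 fits and the adjusted p reached 0.132. Cd14, which hands bacterial lipids to Tlr4, rose by 1.31, and Tlr2 by 1.96. The endosomal receptors Tlr7, Tlr9 and Tlr13, which sense nucleic acids, rose by 0.999, 1.07 and 0.86. Tlr3, another of these sensors, had a log2 fold change of 0.30 (adjusted p = 0.255, edgeR) and did not pass, and Tlr8, with 0 to 13 counts, was not tested. Without void replicate 11 the adjusted p was 0.0568 for Tlr7, 0.0533 for Tlr9 and 0.0682 for Tlr13, and without DHT replicate 3 it was 0.0547 for Tlr13. Ltbr and Tlr1 rose as well. Tlr4 had a log2 fold change of 0.61 (adjusted p = 0.119) and Il1r1 one of 0.31 (adjusted p = 0.221), and neither passed.

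Adaptors, ligases and kinases act between the receptors and the subunits. Of 24 adaptors and ubiquitin ligases 1 rose, Ticam2, an adaptor of Tlr4, by 1.11 on the log2 scale (adjusted p = 0.0133, edgeR), and the median of the list was 0.14. That is 4.17% of the list, near the 5.22% of all genes. Of the 24 estimates 23 were positive (52.4% of all genes were). At an unadjusted p under 0.05, 6 of the 24 were higher (13.1% of all genes were). Of 9 other kinase genes 0 passed in edgeR, with 1 higher and 0 lower at an unadjusted p under 0.05 (Map3k14), and the median was 0.039. Ikbkg, the regulatory subunit NEMO of the IKK complex, stood at 52.9 ± 1.63 CPM (void) and 52.2 ± 2.50 CPM (DHT; SD, n = 5 each). Map3k14 (NIK), which starts the non-canonical branch, stood at 3.28 ± 0.446 and 4.35 ± 0.651 CPM (SD, n = 5 each), with 4 of the 5 DHT-treated mice above all void-treated mice and an adjusted p of 0.129 from the same test.

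Of 5 other IκB genes 1 rose. Bcl3, a nuclear IκB that works with p50 and p52 dimers, stood at 0.240 to 0.738 CPM with void and at 0.617 to 1.76 with DHT. Void replicate 10 was above DHT replicate 2, and the log2 fold change was 1.70 (adjusted p = 0.0209, edgeR). With a single mouse left out it passed in 6 of 10 fits, and the adjusted p was 0.0706 without void replicate 11, 0.0653 without void replicate 4, 0.0600 without DHT replicate 1 and 0.0567 without DHT replicate 3. Nfkbie (IκBε) ranged from 2.24 to 2.88 CPM with void and from 3.27 to 4.01 with DHT, and its groups did not overlap. It had a log2 fold change of 0.44 (adjusted p = 0.0545, edgeR). It passed under 4 of 8 other settings, among them DESeq2 (0.0331) and limma (0.0437), and in 0 of 10 fits with a mouse left out. Nfkbib (IκBβ) had a log2 fold change of 0.12 (adjusted p = 0.743). Of 18 deubiquitinases and other brakes 17 were tested and 0 passed in that test. At an unadjusted p under 0.05, 5 were higher (13.1% of all genes were) and 0 lower. Their median was 0.023, and Cyld, which strips ubiquitin chains from the signalling complexes, stood at 209 ± 20.6 and 199 ± 14.1 CPM (SD, n = 5 each).

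A list of 38 target genes of NF-κB had 27 that were tested. Of these 11 rose and 0 fell, or 40.7% higher against 5.22% of all genes, with a median log2 fold change of 0.51. The 11 fell to 6 without DHT replicate 1 or 3, to 7 without void replicate 4 or 11 and to 0 with either covariate. In the same order, the 920 genes called higher over all genes fell to 395, 518, 493, 351 and 0. The 2 covariates left different estimates. At an unadjusted p under 0.05 (edgeR), 14 of the 27 were higher with the choroid plexus markers and 1 with the microglia markers. The medians of the list were 0.58 and 0.39 in these fits, and those of all genes 0.0090 and 0.039. The chemokines Cxcl10, Ccl5 and Ccl3 rose by 3.11, 2.96 and 2.50 on the log2 scale, and the adhesion genes Icam1 and Vcam1 by 1.01 and 0.72. Counts of the chemokines were low with void, at 7 to 38 for Cxcl10, 1 to 9 for Ccl5 and 4 to 22 for Ccl3. With DHT they were 86 to 462, 13 to 109 and 42 to 95. Ccl5 and Ccl3 thus passed the filter through the DHT-treated mice. With at least 10 counts in every library asked for, 7 of 21 tested target genes rose, and 830 of 15973 over all genes. Icam1 ranged from 1.94 to 3.54 CPM with void and from 3.63 to 6.94 with DHT. Tapbp, a chaperone of MHC class I loading, rose by 0.51. Many of these genes also answer to interferons or are abundant in microglia, so the list is not a readout of NF-κB alone. Il6 had 0 to 6 counts per mouse and Ccl2 2 to 27, and both fell short of the filter. For Ccl2 the adjusted p was 0.0557 in edgeR with no filter and 0.0441 in DESeq2. The difference between the lists was not tested.

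**Figure D3:**
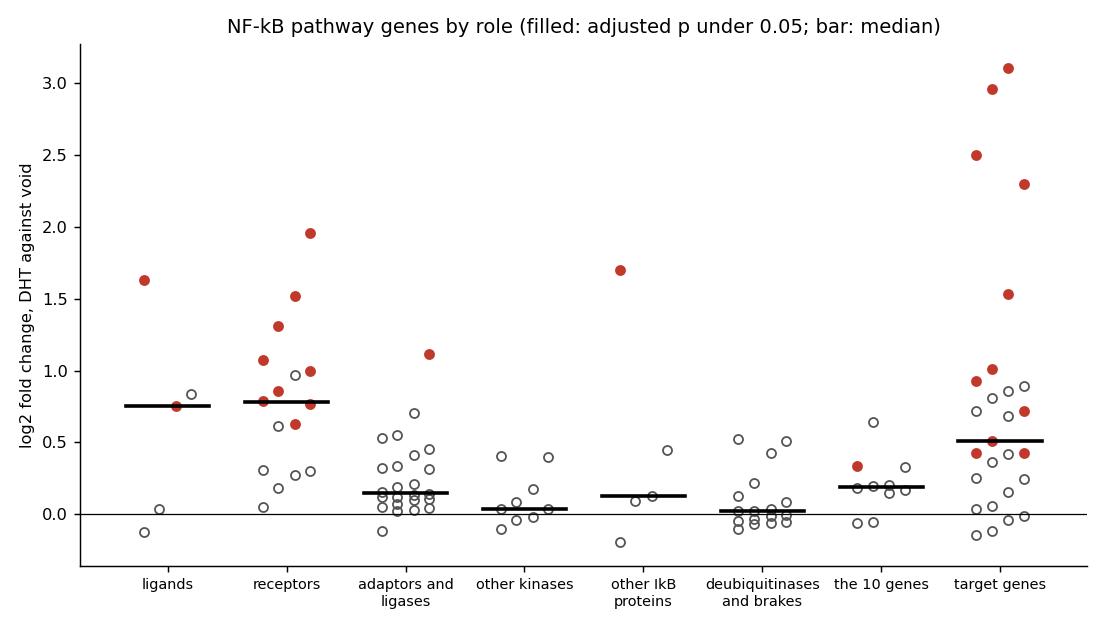
Log2 fold change of DHT against void for the tested genes of each role list and of the 10 core genes, with 1 circle per gene, filled red where the adjusted p was under 0.05, and a bar at the median. Medians stand at 0.78 for receptors and 0.51 for target genes, and at 0.039 for other kinases and 0.023 for deubiquitinases and brakes.

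With each group centred on its mean, Pearson's r across the 10 mice with the mean of the microglia markers was 0.71 for Nfkb1, 0.70 for Nfkb2 and 0.65 for Rel, and between -0.31 and 0.27 for the others. Other marker lists gave values as large. Nfkb2 had r = 0.72 with astrocyte markers, and Chuk had r = -0.75 with neuron markers. Tnfaip3 had r = 0.68 with choroid plexus and -0.78 with endothelial markers, and Relb 0.61 and -0.70. DHT replicate 1 was highest of all mice for the microglia, astrocyte and choroid plexus sums, for Nfkb1, for Nfkb2 and for Rel. Rela did not show this order, and its highest mouse was DHT replicate 6. With the microglia marker mean as a covariate in edgeR, the log2 fold change of Nfkb1 was 0.17 (SE 0.13), that of Nfkb2 was -0.048 (SE 0.31) and that of Rela was 0.23 (SE 0.26). The covariate itself differed between the groups, and the part of microglia in the difference was not otherwise tested. With the choroid plexus markers as the covariate, Nfkb1 stood at 0.32 (SE 0.11), Nfkb2 at 0.57 (SE 0.31) and Rela at 0.19 (SE 0.19). In either fit 0 of all genes were called, with 0 and 1 of the 10 genes higher at an unadjusted p under 0.05 in the microglia and choroid plexus fits.

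**Figure D4:**
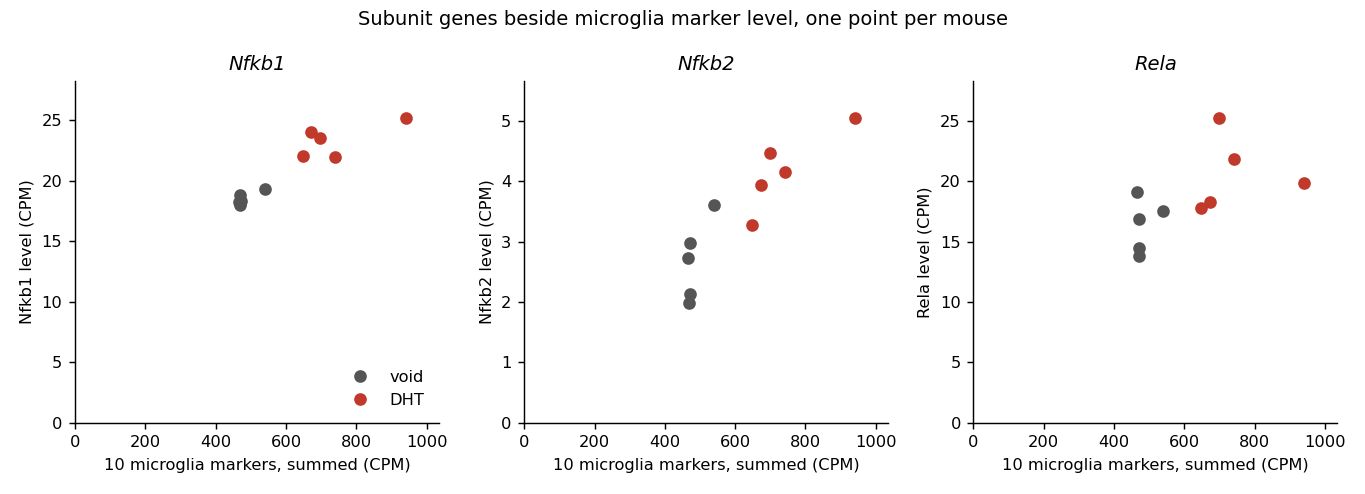
Level of Nfkb1, Nfkb2 and Rela (CPM, vertical axes from 0) against the summed level of 10 microglia markers (CPM, horizontal axes from 0), with 1 point per mouse, void in grey and DHT in red. The marker sum alone separates the groups, at 466 to 540 against 648 to 942 CPM.

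**Figure D5:**
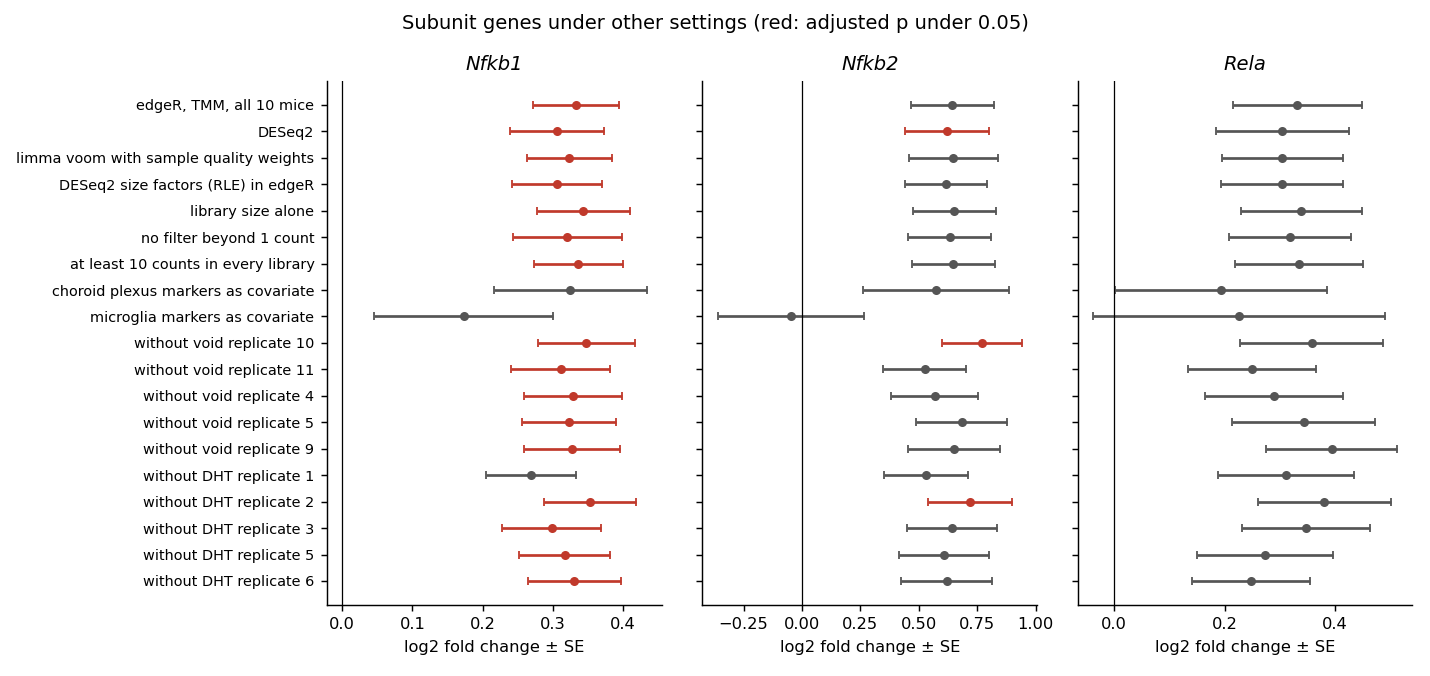
Log2 fold change (points) ± SE (bars) of Nfkb1, Nfkb2 and Rela in the main analysis and under the other settings, in red where the adjusted p was under 0.05. Nfkb1 is red except with a covariate and without DHT replicate 1, and Nfkb2 moves from 0.64 to -0.048 with the microglia covariate.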

How the data were processed

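Hippocampal mRNA libraries from 10 mice, 1 per mouse, were sequenced as paired ends. The authors trimmed reads with HTStream, aligned them with STAR 2.7.10b and deposited a table of raw counts by gene. The paper names mm10 and the submitters' processing notes name GRCm39. The counter, annotation release and strand setting are not given in the sources used here. Symbols came from GENCODE M21 (51948 of 56884 identifiers matched with the version dropped), as did transcript lengths and exon overlaps.

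Groups came from the sample titles. In edgeR 4.0.16 (R 4.3.3), low counts were filtered with filterByExpr, which left 17622 genes, libraries were scaled by TMM, and quasi-likelihood F tests were run, with p-values adjusted by Benjamini and Hochberg's method and calls made under 0.05. Standard errors are the log2 fold change over the root of F. CPM uses TMM library sizes, and log2 CPM a prior count of 2. DESeq2 1.42.0 and limma 3.58.1 were alternatives. The fits were tested on a single set of simulated counts, with 200 changed genes, equally up and down. Of the calls, 16.6% were false with DESeq2, 4.79% with edgeR and 3.80% with limma. The simulation used edgeR's dispersions, and in the data 920 genes rose and 46 fell, so it does not rank the tools here. A call by DESeq2 alone is still read with caution. Members and gene lists were chosen with earlier results of these data known. Named from each list were up to 6 called genes of lowest p and 15 genes fixed by name. Ltbr, Tlr1, Tlr3 and Tlr8, outside that rule, were named after their values were seen. The 95% intervals are those of the estimated log2 fold change, from its standard error and degrees of freedom. They rest on variation between mice, while SDs and ranges give the spread of single mice.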

Additional observations from a re-analysis of the deposited data

Results flagged for a closer look

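In 68 groups of 5 mice examined, over the core genes and the other genes named, a single mouse stood apart from its group on the log2 CPM scale in 1, where chance gives about 3.4. Tlr2 was lowest in void replicate 11, at 1.05 CPM against 2.05 to 2.61 CPM in the other void-treated mice, and on the log2 CPM scale the gap to the nearest mouse was 0.734 of the range of the group, against a critical value of 0.71. On the CPM scale the gap does not reach that value.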

How the results depend on the processing

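No paired analysis was possible because the labels give neither pairs nor litters. The paper states that littermates were randomized to the treatment. Replicate number 5 is found in both groups, and nothing marks it as a pair. The count of core genes called higher, 1 in the main analysis, was 2 with DESeq2, 0 with the choroid plexus or microglia covariate and 0 with a log2 fold change beyond 1 asked for as well, and ranged from 0 to 2 with a mouse left out. The 13 pathway genes became 0 with either covariate and 7 with the fold limit, and ranged from 5 (without void replicate 11) to 14 (without void replicate 5), with 8 without DHT replicate 1. The 11 target genes became 7 with at least 10 counts in every library, 0 with either covariate and 6 with the fold limit, and ranged from 6 (without DHT replicate 1 or 3) to 14 (without DHT replicate 2), with 7 without void replicate 4 or 11. No core, pathway or target gene was called lower under any of these settings. Calls over all genes moved as well, with 920 higher in the main analysis, 1228 with DESeq2 and 0 with either covariate. They were 382 with the fold limit and 830 with at least 10 counts in every library. With a mouse left out they ranged from 351 (without void replicate 11) to 1072 (without void replicate 9). Of 607 values compared for single genes, 535 kept their direction and side of the threshold, 55 no longer passed, 8 newly passed and 9 changed sign. With the microglia covariate the sign changed for Rel (-0.098), Nfkb2 (-0.048), Tnfaip3 (0.17), Ikbkg (0.0089) and Nfkbib (-0.085), and with the choroid plexus covariate for Relb (-0.065), Nfkbia (-0.011) and Ikbkg (0.020). Tnfaip3 ranged from -0.15 to 0.035 (without void replicate 9) with a mouse left out. The cause was not tested. The covariates differ between the groups. A minimum of 10 counts in every library leaves out genes such as Cxcl10, whose lowest count was 7.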
